A study of Mus musculus with 10 samples.

Results

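Nuclear receptors are transcription factors that are switched on by small ligands such as estradiol, and they act through partner proteins. Coactivators dock on the ligand-bound receptor and bring in enzymes that open chromatin, while corepressors bring in histone deacetylases and damp transcription. In the hippocampus, estradiol and other steroid hormones act through such receptors on neurons and glia, and the supply of these partners helps to set how strongly a cell responds. The genes described here are 8 such partners. Ncoa1, Ncoa2 and Ncoa3 are the steroid receptor coactivators. Pelp1 is a scaffold protein that joins estrogen receptors to chromatin and kinase complexes. Ncor1 is the scaffold of a histone deacetylase corepressor complex. Nrip1 (also RIP140) binds ligand-bound receptors and represses their targets. Phb2 (also REA) is a prohibitin that can repress the estrogen receptor and is also a structural protein of mitochondria. Greb1 is a chromatin cofactor of the estrogen receptor that is induced by estrogen in human breast cancer cells. Members were taken by gene name: every non-control probe that the array files assign to 1 of these 8 symbols was used, which gave 21 of 41174 probes, and all 21 were among the 30984 probes that entered the test.

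The arrays carried RNA from the hippocampus of adult ICR mice, an outbred stock. The high estradiol group (HE, 5 animals) had dams that took estradiol valerate, an ester that releases estradiol, by mouth in corn oil, 100 µg/kg each day, between gestation days E5.5 and E11.5. The normal control group (NC, 5 animals) had dams that took corn oil alone in equal volume. The animals were untreated as adults as far as the labels state, all 10 were labelled male, and the labels name no litter, so p-values measure only the spread between these 10 animals, and litter was not tested.

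Signals are log2 values relative to the 75th percentile of each array, so that 0 is the signal that 75% of probes do not exceed. The 75th percentile itself was 1140 to 1277 intensity units on HE arrays and 898 to 1186 on NC arrays, and the share of probes well above background was 70.3% to 78.9% on HE arrays, against 70.4% to 76.0% on NC arrays. Precision is limited by the number of arrays. There were 3 slides: HE 3 to HE 5 were on slide 3, HE 1, HE 2 and NC 5 on slide 2, and NC 1 to NC 4 on slide 1. High Xist, the RNA of the inactive X chromosome, went against the male label on 7 arrays, 3 of HE and 4 of NC, and on slide 2 it was high on both HE arrays and low on the NC array. Of 14 hippocampal markers 13 entered the test. Their summed signal, in multiples of the 75th percentile, was 34.3 to 57.0 on HE arrays and 33.7 to 46.8 on NC arrays. Entry alone does not tell the tissue, since 18 of 20 thalamus and habenula markers entered too. Markers of tissue next to the hippocampus also differed: 13 of 18 thalamus and habenula markers fell in HE (summed signal 27.1 to 61.6 on HE arrays and 63.6 to 137 on NC arrays), and 12 of 16 myelin markers fell (278 to 361 on HE arrays and 480.1 to 614 on NC arrays). In whole tissue, fewer cells of a type and less RNA per cell cannot be told apart.

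The sequences below are the probes on which the results turn, since different probes of Nrip1 and of Ncor1 moved in opposite directions or did not move together. Each is a probe of 60 bases copied from the array files, written from 5′ to 3′ in lower case, with the position those files give on mm9. Of the second Nrip1 probe, a stretch of 30 bases is shown, with AATAAA, the usual polyadenylation signal, in capitals. That hexamer occurs in 1967 of the 41174 probes (4.78%) and in no other member probe. The first 3 lines are Nrip1, all on the minus strand, at chr16:76291555-76291614, chr16:76288478-76288537 and chr16:76352018-76352077, and the file names the first by a RefSeq mRNA and the others by Ensembl transcripts. The next 2 lines are Ncor1 probes to its RefSeq mRNA on the minus strand, one near the end of the message (chr11:62131484-62132878, a span longer than the probe) and one near its start (chr11:62233143-62233202). The last 3 are probes that the files also name Ncor1 but that lie on the plus strand and were designed to GenBank cDNA clones, at chr11:62138461-62138520, chr11:62141029-62141088 and chr11:62139770-62139829.
Nrip1 A_51_P152747: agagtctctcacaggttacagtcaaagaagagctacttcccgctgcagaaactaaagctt
Nrip1 A_52_P413584: acaaatgtataaAATAAAccttttatttaa
Nrip1 A_52_P609319: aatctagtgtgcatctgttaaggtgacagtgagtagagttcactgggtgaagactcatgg
Ncor1 A_52_P561934: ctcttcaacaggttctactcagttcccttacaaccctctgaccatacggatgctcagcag
Ncor1 A_52_P487598: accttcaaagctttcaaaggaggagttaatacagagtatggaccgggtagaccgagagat
Ncor1 A_52_P357298: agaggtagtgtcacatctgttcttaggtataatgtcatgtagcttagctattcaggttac
Ncor1 A_51_P457744: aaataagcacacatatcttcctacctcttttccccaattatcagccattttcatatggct
Ncor1 A_52_P43661: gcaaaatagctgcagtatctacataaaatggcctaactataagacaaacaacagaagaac

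The question put by HE against NC is whether estradiol excess in the dam goes with a change of these genes in the adult hippocampus. In the main setting Nrip1 and Ncor1 were the genes with probes that passed, and no probe of the other 6 genes did. The Nrip1 mRNA probe and the probe that holds AATAAA rose in HE by 0.51 and 0.42 on the log2 scale, although normexp background correction put the second at -0.12. Another Nrip1 probe, further upstream, fell by 0.71. All 3 plus-strand probes named Ncor1 fell by 0.49 to 0.58, while its 4 mRNA probes did not pass. In all, 6 of 21 member probes (28.6%) passed at a limma adjusted p under 0.05, 2 higher and 4 lower, where 23.2% of all probes passed, 7.71% higher and 15.5% lower. With arrays quantile normalized, 6 member probes passed, 4 higher and 2 lower, and over all probes the split was 3607 higher and 3843 lower, against 2388 and 4788 in the main scaling. After normexp background correction it was 2329 higher and 12048 lower over all probes, and 5 higher and 7 lower among the member probes. Probes of Ncoa1 (0.53), Ncoa3 (-0.89 and -0.89), Phb2 (0.41), Greb1 (-1.28) and the Ncor1 mRNA (0.29 and 0.33) passed only in such other settings. Their limma adjusted p-values after normexp were 0.0168 to 0.0487, and the median of all probes there was -0.42. No overlap between HE and NC arrays was seen for 7 of the 21 member probes (33.3%), against 17.4% of all probes. The median log2 fold change was 0.08 over the member probes and -0.05 over all probes tested. With slide as a block, which leaves the difference between HE 1, HE 2 and NC 5 on slide 2, none of the 21 member probes passed in limma (2 had an unadjusted p under 0.05), against 0.807% of all probes, and the 6 probes above kept their sign.

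**Figure D1:**
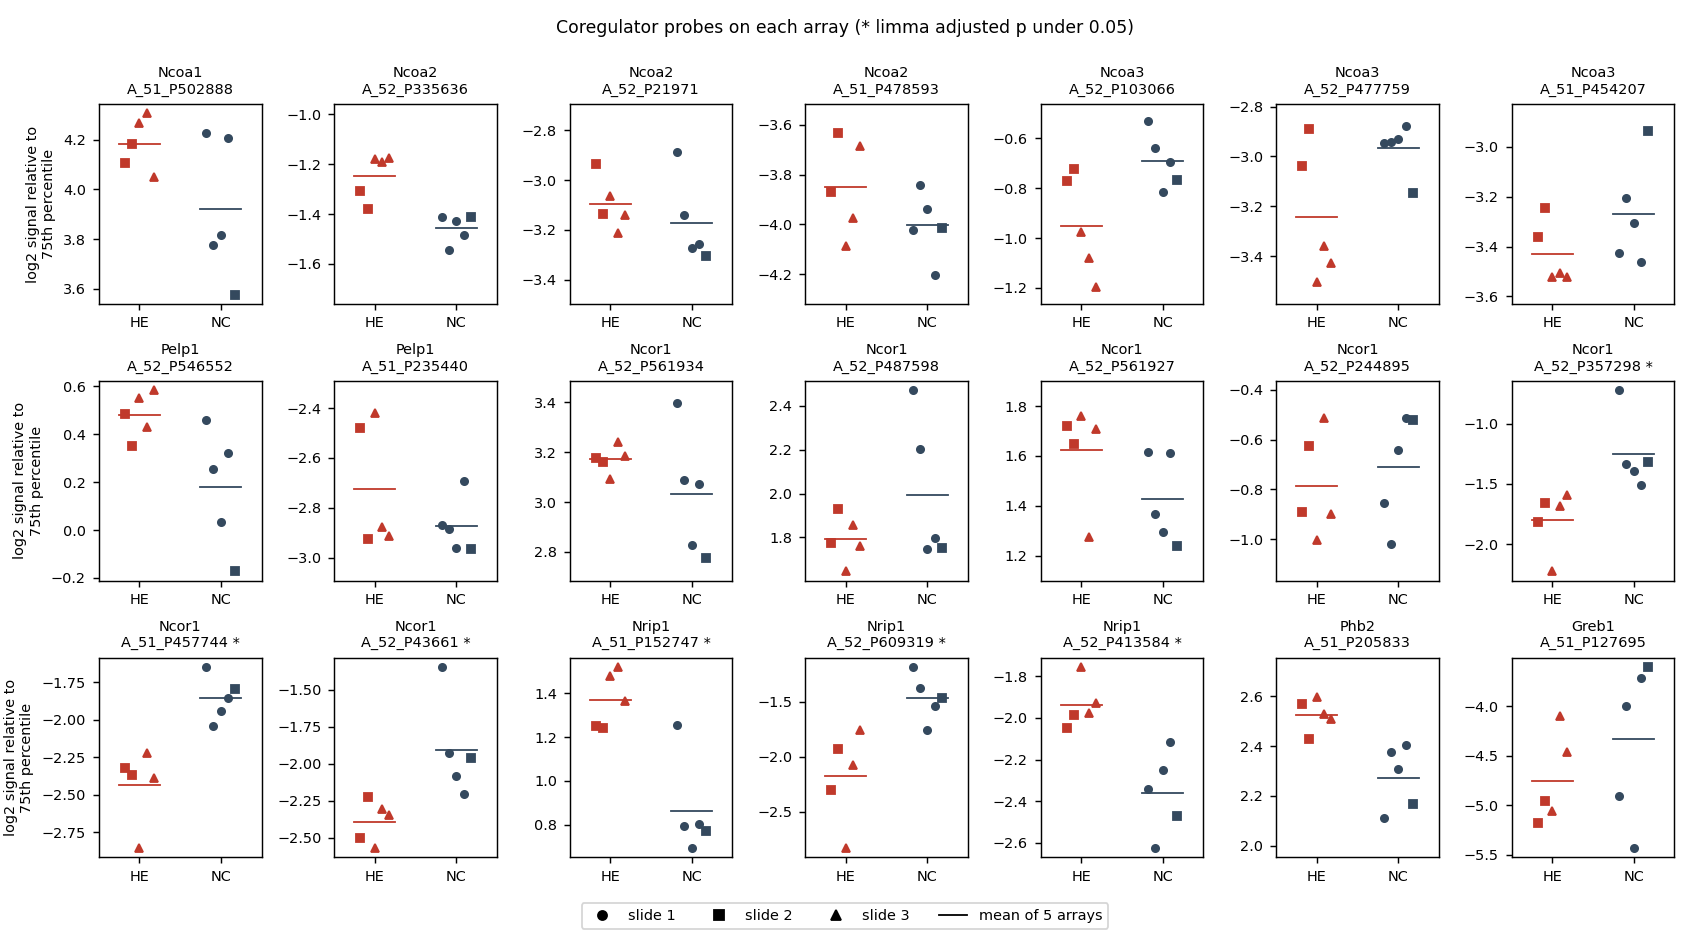
Each panel is 1 probe of the 8 coregulators, with the log2 signal relative to the 75th percentile of the array on the vertical axis, HE arrays in red on the left, NC arrays in dark blue on the right, the marker shape for the slide and a line at each mean of 5 arrays. Asterisks mark the 6 probes with a limma adjusted p under 0.05: 3 of Nrip1 and 3 of Ncor1.

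Ncoa1, a steroid receptor coactivator that recruits histone acetyltransferases and is widely expressed in brain, was read by 1 probe. On the log2 scale it stood at 4.11, 4.18, 4.27, 4.31 and 4.05 on HE arrays, against 4.23, 3.78, 3.82, 4.21 and 3.58 on NC arrays. The groups overlapped: NC 1 and NC 4 lay among the HE arrays and the other 3 NC arrays below all of them. The log2 fold change was 0.26 ± 0.14 (SE, 95% interval -0.04 to 0.57, limma adjusted p = 0.186). On slide 2 alone it was 0.57 (limma adjusted p = 0.210). After normexp it was 0.53 and passed (limma adjusted p = 0.0168).

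Ncoa2, the coactivator known as GRIP1 for its binding to the glucocorticoid receptor, had 3 probes with log2 fold changes of 0.21, 0.15 and 0.08, and none passed. The probe with the highest signal stood at -1.31, -1.38, -1.18, -1.19 and -1.17 on HE arrays, against -1.41, -1.55, -1.43, -1.48 and -1.41 on NC arrays. Every HE array lay above every NC array, by a small margin. Its difference of 0.21 ± 0.08 had a 95% interval of 0.04 to 0.38 and a limma adjusted p of 0.0774. The direction of the Ncoa2 probes depends on the background correction, since with normexp they were at -0.07, -1.004 and -0.70. With quantile normalization 2 of the 3 passed, at 0.28 and 0.41 (limma adjusted p = 0.0322 and 0.0162).

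Ncoa3, a coactivator that is amplified in human breast cancer, had log2 fold changes of -0.26, -0.28 and -0.16 at its 3 probes. The first stood at -0.77, -0.72, -0.98, -1.08 and -1.20 on HE arrays, against -0.53, -0.64, -0.82, -0.70 and -0.77 on NC arrays. HE 1 and HE 2, on slide 2, lay among the NC arrays, and the 3 HE arrays of slide 3 lay below all NC arrays. Its 95% interval was -0.51 to -0.01 and its limma adjusted p was 0.116. On slide 2 the first 2 probes stood at 0.02 and 0.18, with the opposite sign.

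Pelp1 was read by 2 probes with log2 fold changes of 0.30 and 0.15. The first stood at 0.48, 0.35, 0.55, 0.43 and 0.58 on HE arrays, against 0.46, 0.25, 0.03, 0.32 and -0.17 on NC arrays. Apart from NC 1, which lay among the HE arrays, the NC arrays were the lower ones. Its 95% interval was 0.02 to 0.58 and its limma adjusted p was 0.104. It was 0.59 on slide 2, with an unadjusted p of 0.0178, and this and Ncoa1 (0.0455) were the member probes under 0.05 there.

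Nrip1 is abundant in metabolic tissues and is itself induced by estrogen in human breast cancer cells. Its mRNA probe stood at 1.25, 1.24, 1.48, 1.52 and 1.37 on HE arrays, against 1.26, 0.80, 0.69, 0.80 and 0.77 on NC arrays. NC 2 to NC 5 lay well below all HE arrays, and NC 1 lay among the HE arrays. The mean was 1.37 ± 0.13 in HE and 0.86 ± 0.22 in NC (SD, n = 5 each). This is a 1.42-fold higher signal in HE, a log2 fold change of 0.51 ± 0.12 (SE, 95% interval 0.24 to 0.78, limma adjusted p = 0.0184). It passed with each single array left out, at 0.47 to 0.61. On slide 2 it was 0.48, close to the value over all arrays, with a limma adjusted p of 0.265.

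The Nrip1 probe with AATAAA lies 3′ of the mRNA probe on the minus strand. It stood at -2.05, -1.99, -1.76, -1.98 and -1.93 on HE arrays, against -2.34, -2.63, -2.25, -2.12 and -2.47 on NC arrays. All HE arrays lay above all NC arrays. It rose by 0.42 ± 0.11 on the log2 scale (limma adjusted p = 0.0252), and 0.45 on slide 2. It did not pass without HE 3, NC 2 or NC 5 (0.35 to 0.48 over single arrays left out). Its sign depends on the background correction: it was -0.12 with normexp, a setting that moved the median of all probes to -0.42, so that the probe lay above that median.

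The upstream Nrip1 probe moved the other way. It stood at -2.30, -1.93, -2.83, -2.07 and -1.75 on HE arrays, against -1.19, -1.38, -1.75, -1.54 and -1.47 on NC arrays. The HE arrays were the lower ones, and the groups met at their edges, where HE 5 and NC 3 had practically the same value. Its log2 fold change was -0.71 ± 0.20 (95% interval -1.15 to -0.28, limma adjusted p = 0.0288), and -0.65 on slide 2. It did not pass without HE 1, NC 1, NC 2 or NC 5 (-0.82 to -0.55 over single arrays left out).

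Whether probes of a gene responded differently was tested on the difference of their log2 signals on the same array, which a shift of a whole array leaves as it is. The mRNA probe of Nrip1 minus its upstream probe was 3.55, 3.17, 4.31, 3.59 and 3.12 on HE arrays, against 2.44, 2.17, 2.45, 2.34 and 2.24 on NC arrays. Every HE array lay clearly above every NC array. The difference was larger by 1.22 ± 0.20 in HE (limma adjusted p = 0.0130), and it passed with each array left out, at 1.03 to 1.33. On slide 2 it was 1.12 (limma adjusted p = 0.360). The mRNA probe and the AATAAA probe changed by amounts that differed by 0.09 ± 0.14 (limma adjusted p = 0.669). Among all 13 member pairs 5 passed, where 20.0% of 10829 pairs of all genes passed, and with slide as a block 0.102% of all pairs and no member pair did. Apart from the Nrip1 pair, the member pairs that passed all share the Ncor1 probe A_52_P561934, so they are not separate results.

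**Figure D2:**
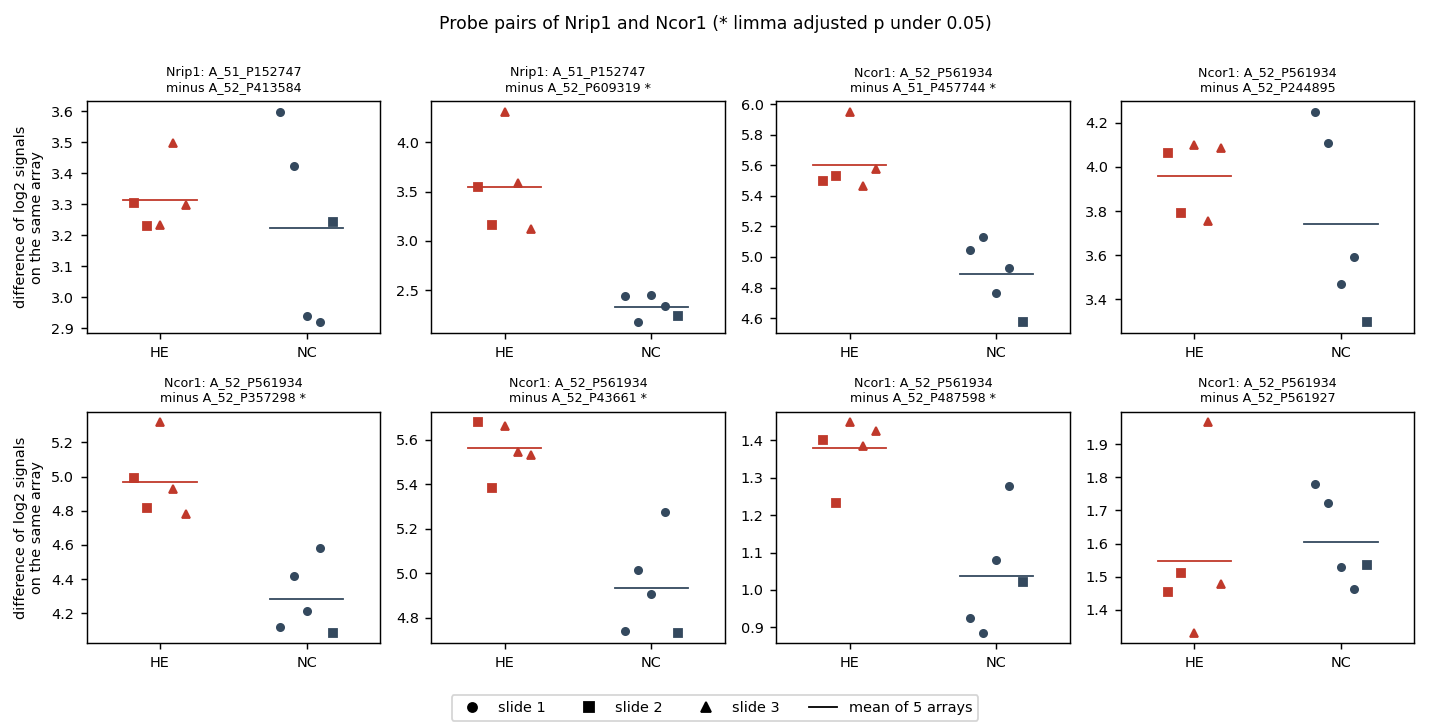
Each panel is a pair of probes of Nrip1 or Ncor1, with the first probe minus the second on the same array (difference of log2 signals) on the vertical axis, HE arrays in red on the left, NC arrays in dark blue on the right, the marker shape for the slide and a line at each mean of 5 arrays. Asterisks mark the 5 pairs that passed in limma. The Nrip1 mRNA probe minus the upstream probe lies between 3.12 and 4.31 on HE arrays and between 2.17 and 2.45 on NC arrays.

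Ncor1 was read by 4 probes of its mRNA, which lies on the minus strand, and none of these passed in the main setting. The probe near the end of the message stood at 3.18, 3.16, 3.09, 3.24 and 3.19 on HE arrays, against 3.40, 3.09, 2.83, 3.07 and 2.77 on NC arrays. The HE arrays were tightly grouped, and the NC arrays spread on both sides of them. The log2 fold change was 0.14 ± 0.12 (95% interval -0.13 to 0.41, limma adjusted p = 0.421). The next probe upstream was at 0.20 (limma adjusted p = 0.267), the probe to transcript variant 3 at -0.08 (limma adjusted p = 0.716) and the probe near the start at -0.20 (95% interval -0.54 to 0.14, limma adjusted p = 0.356). After normexp the end probe (0.29, limma adjusted p = 0.0337) and the next upstream (0.33, adjusted p = 0.0487) passed.

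The ends of the Ncor1 message were also compared with each other. The end probe minus the start probe was 1.40, 1.23, 1.45, 1.38 and 1.43 on HE arrays, against 0.92, 0.89, 1.08, 1.28 and 1.02 on NC arrays. All HE arrays but HE 2 lay above the NC arrays, among which NC 4 was the highest. The difference was larger by 0.34 ± 0.09 in HE (limma adjusted p = 0.0291), and it passed in 6 of 15 alternative settings. It did not pass without HE 1, HE 3, HE 4, HE 5, NC 1, NC 2 or NC 5, after normexp (0.32, limma adjusted p = 0.0580) or on slide 2 (0.30, limma adjusted p = 0.562). Over 1799 pairs of RefSeq probes of 1 transcript at least 2000 bases apart, the median 3′ minus 5′ difference was 2.13 to 2.27 on HE arrays and 2.005 to 2.22 on NC arrays, and the part of this shift in the Ncor1 difference was not tested.

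The 3 plus-strand probes named Ncor1 lie within the span of its mRNA probes, on the strand opposite to them. The probe A_51_P457744 stood at -2.32, -2.37, -2.86, -2.22 and -2.39 on HE arrays, against -1.65, -2.04, -1.94, -1.85 and -1.80 on NC arrays. All HE arrays lay below all NC arrays, HE 3 furthest. Its log2 fold change was -0.58 ± 0.13 (95% interval -0.87 to -0.29, limma adjusted p = 0.0159), it passed with each array left out (-0.63 to -0.47), and it was -0.55 on slide 2 (limma adjusted p = 0.263).

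The other plus-strand probes fell by similar amounts but on a weaker test. A_52_P357298 stood at -1.82, -1.66, -2.23, -1.69 and -1.59 on HE arrays, against -0.72, -1.33, -1.39, -1.51 and -1.31 on NC arrays. A_52_P43661 stood at -2.50, -2.22, -2.57, -2.31 and -2.35 on HE arrays, against -1.35, -1.93, -2.08, -2.20 and -1.96 on NC arrays. In both the HE arrays lay below all NC arrays, and NC 1 was the highest array. The log2 fold changes were -0.54 ± 0.17 and -0.49 ± 0.16 (limma adjusted p = 0.0441 and 0.0484). With single arrays left out, the first passed only without NC 4, and the second only without NC 1, NC 3 or NC 4.

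Set against the end probe of the Ncor1 mRNA on the same array, the plus-strand probes differed clearly from it. The mRNA probe minus A_51_P457744 was 5.499, 5.53, 5.95, 5.47 and 5.58 on HE arrays, against 5.05, 5.13, 4.77, 4.93 and 4.57 on NC arrays. The groups did not overlap, and the difference was larger by 0.72 ± 0.13 in HE (limma adjusted p = 0.0136). Against the other 2 probes it was larger by 0.68 and 0.63 (limma adjusted p = 0.0146 and 0.0136), also without overlap. These 3 differences passed with each array left out, and on slide 2 they were 0.94, 0.82 and 0.80 and did not pass (limma adjusted p = 0.206, 0.309 and 0.262).

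Other probes in the same stretch of chromosome 11, picked by position after values had been seen, did not all move with the plus-strand Ncor1 probes. Ttc19, a mitochondrial protein gene whose listed span overlaps Ncor1 on the plus strand in the RefSeq table of GRCm38.p6, had 1 probe that rose (log2 fold change 0.50, limma adjusted p = 0.0242) and 1 at 0.25 (limma adjusted p = 0.169). Probes to 2 other plus-strand clones there were at -0.03 and -0.24 (limma adjusted p = 0.835 and 0.513). A probe to a minus-strand clone fell by 1.28 (limma adjusted p = 0.0278).

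The kind of target a probe was designed to moved with the direction of its call over the whole array. Of probes to RefSeq mRNAs 9.15% were higher and 10.4% lower, of those to Ensembl transcripts 3.86% and 24.6%, and of those to GenBank clones 2.89% and 38.0%. The 4 member probes that fell were designed to clones (3) and to an Ensembl transcript (1), and those that rose to a RefSeq mRNA (1) and to an Ensembl transcript (1). Of 13 probes on the strand opposite to the mRNA probes of their gene, 5 (38.5%) fell and 0 rose in limma, and the 3 Ncor1 probes are among these 5. Of the other 351 probes without a RefSeq mRNA target that lie on the same strand within the span of the mRNA probes of their gene, 42.5% fell and 1.71% rose. Base composition also moved with the calls: 23.7% of probes at or under 35% GC fell, against 5.12% of those over 55% GC. The falling member probes held 38.3%, 36.7% and 35.0% GC (Ncor1) and 45.0% GC (Nrip1), and the rising Nrip1 probes 45.0% and 35.0%. The part of target kind and GC content in the member results was not tested.

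**Figure D3:**
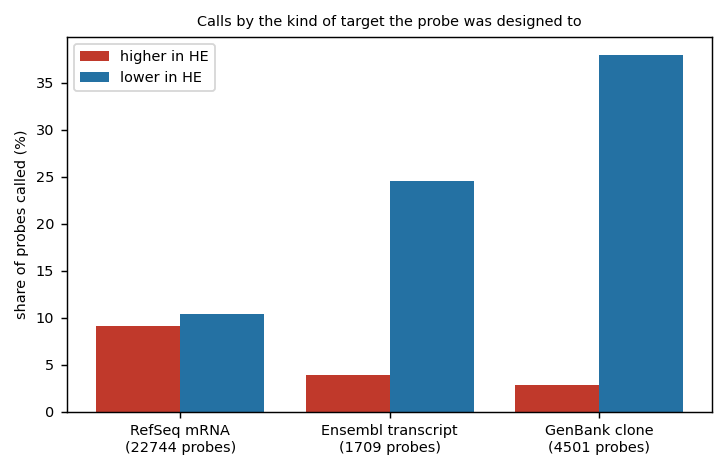
Bars give the share of entering probes (%, from 0) that passed at a limma adjusted p under 0.05, higher in HE in red and lower in HE in blue, by the kind of target the probe was designed to. Probes to GenBank clones were lower in 38.0% and higher in 2.89%, while probes to RefSeq mRNAs were lower in 10.4% and higher in 9.15%.

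Phb2 was read by 1 probe. It stood at 2.57, 2.43, 2.60, 2.53 and 2.51 on HE arrays, against 2.11, 2.38, 2.31, 2.40 and 2.17 on NC arrays. All HE arrays lay above all NC arrays, HE 2 only just. Its log2 fold change was 0.25 ± 0.09 (95% interval 0.06 to 0.45), with a limma adjusted p of 0.0587. It passed in 5 of 24 alternative settings, among them slide as a random block (limma adjusted p = 0.0465), and on slide 2 it was 0.33. The correlation within slides in the random block fit was -0.055, so that fit took out no shared slide effect. Phb, the prohibitin that pairs with Phb2 in the inner mitochondrial membrane, fell by 0.58 (limma adjusted p = 0.0128). With slide as a block Phb did not pass (limma adjusted p = 0.130). The difference between Phb and Phb2 was not tested.

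Greb1 had a weak and scattered signal. It stood at -5.18, -4.96, -5.06, -4.09 and -4.47 on HE arrays, against -4.91, -3.99, -5.44, -3.72 and -3.60 on NC arrays. Both groups ran over much of the same range. Its log2 fold change was -0.42 ± 0.37, with a 95% interval from -1.24 to 0.41 (limma adjusted p = 0.436), so that a fall of 1 log2 unit lies inside the interval. After normexp it was -1.28 and passed (limma adjusted p = 0.0357). The probe was nevertheless well above background on all 10 arrays, as were the other 20 member probes.

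**Figure D4:**
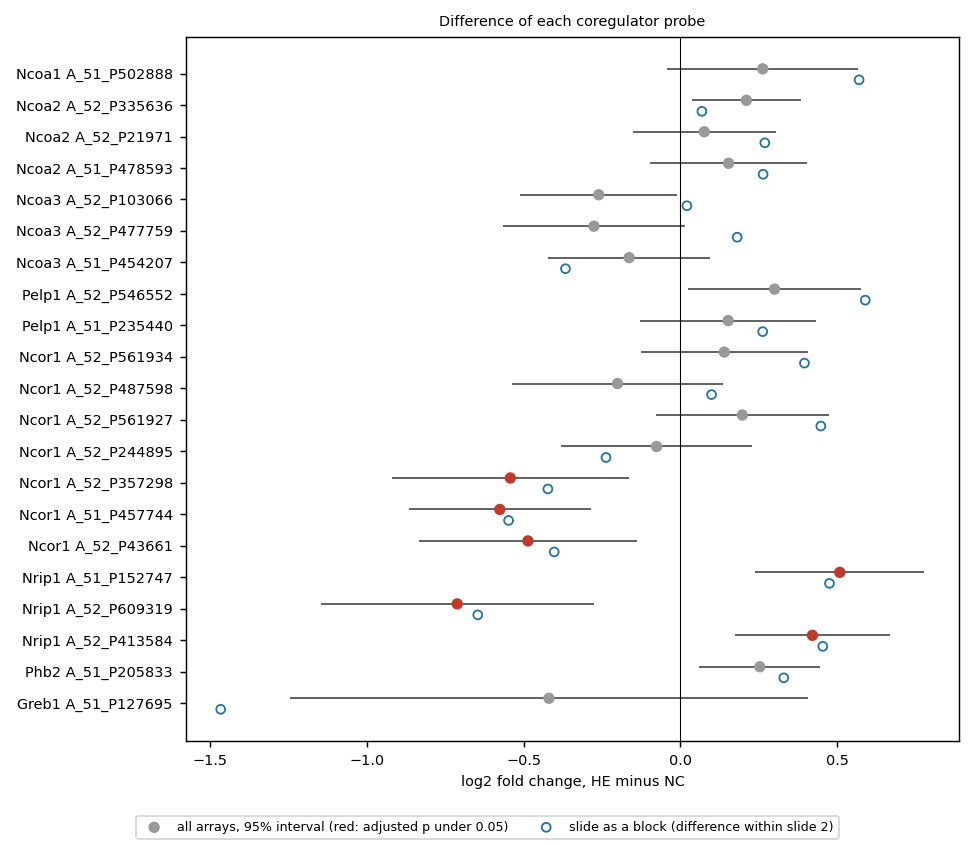
For each of the 21 coregulator probes, the filled point is the log2 fold change (HE minus NC) over all arrays with its 95% interval, red where the limma adjusted p was under 0.05, and the open blue circle is the value with slide as a block. The intervals of the Nrip1 and plus-strand Ncor1 probes that passed leave out 0, as do those of 4 probes that did not pass after adjustment (Ncoa2, Ncoa3, Pelp1 and Phb2), and the blue circles of these 6 probes lie on the same side of 0.

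The marker values given for the tissue were also used as covariates. With the mean of the thalamic markers as a covariate in the fit, no member probe passed in limma, and the log2 fold changes of Nrip1 were 0.43, 0.43 and -0.70 in the order of the sequences. With the mean of the myelin markers they were 0.18, 0.50 and -1.32, and again none passed. The 3 plus-strand Ncor1 probes, in the order of the sequences, were at -0.56, -0.34 and -0.59 with the thalamic covariate and at -0.84, -0.70 and -0.72 with the myelin covariate. Over all probes 1 passed with the thalamic and 0 with the myelin covariate in limma. The myelin mean, in log2 units centred over the arrays, was -0.53 to -0.19 on HE arrays and 0.18 to 0.69 on NC arrays, so that myelin level and group cannot be told apart. The thalamic mean was -1.20 to 0.29 on HE arrays and 0.12 to 1.34 on NC arrays. HE 4 was the only HE array above any NC array, so thalamic level and group can hardly be told apart either. A loss of calls in these fits therefore does not separate the markers from the group. Liver transcripts, 7 of 9 of which fell in HE, were high on NC 1, NC 2 and NC 4, where their centred log2 mean was 3.42, 3.12 and 3.01, against -2.47 to -0.46 on HE arrays and -1.29 and 0.45 on NC 3 and NC 5. Without NC 1, NC 2 and NC 4 only NC 3 and NC 5 are left as controls. The Nrip1 mRNA probe was then at 0.64 (limma adjusted p = 0.0333) and passed. So did probes of Pelp1 (0.55, adjusted p = 0.0383) and of the Ncor1 mRNA (0.37, adjusted p = 0.0498). NC 3 and NC 5 were the lowest NC arrays at each of these probes. The AATAAA probe of Nrip1 (0.42, adjusted p = 0.0680) and its upstream probe (-0.57, adjusted p = 0.210) kept their sign and did not pass. The same held for the plus-strand Ncor1 probes (-0.44, -0.56 and -0.37, adjusted p = 0.142, 0.0848 and 0.0982).

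The estrogen receptors that these partners serve did not pass. Esr1, which encodes estrogen receptor alpha, had 1 probe well above background with a log2 fold change of -0.23 (limma adjusted p = 0.730), and 1 probe that was not well above background on any array. Esr2 was not well above background on any array. Gper1, a membrane estrogen receptor, was at -0.0012 (limma adjusted p = 0.996). Of 40 nuclear receptors that entered, by the probe with the highest signal of each, 5 rose, 7 fell and 28 did not pass, or 30% passed, where 21.4% of all genes did (6.79% higher and 14.6% lower). Their median log2 fold change was 0.06, against -0.06 over the genes tested. Among those that fell were Esrrg (-0.79, limma adjusted p = 0.00447) and Esrrb (-1.42, adjusted p = 0.00653), orphan receptors related to the estrogen receptor, as well as Nr2f2 (-1.26, adjusted p = 0.00653), a COUP transcription factor. Thrb, a thyroid hormone receptor, rose by 0.75 (limma adjusted p = 0.00724), as did Nr2e1, a receptor of neural stem cells, by 0.65 (adjusted p = 0.0329). Rara, a retinoic acid receptor, is counted among the 5 that rose, but it stood well above background in 3 of 5 HE and 0 of 5 NC animals. It thus entered the test through HE alone, and its call is no support for a rise. No fold is given since the HE mean does not exceed the lowest signals well above background in NC. With slide as a block Rara did not pass (limma adjusted p = 0.683). Esrrg, Esrrb, Nr2f2, Thrb and Nr2e1 did not pass there either (limma adjusted p = 0.0551, 0.137, 0.0908, 0.0565 and 0.0504).

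Other coregulators were counted in the same way. Of 37 other coactivators 6 rose, 2 fell and 29 did not pass (21.6% passed), with a median of 0.15. Med14, a subunit of the Mediator complex, rose by 0.41 (limma adjusted p = 0.0132), Carm1, an arginine methyltransferase that works with the Ncoa proteins, by 0.47 (adjusted p = 0.0132) and Smarcd1, a chromatin remodelling subunit, by 0.95 (adjusted p = 0.0138). Kat2b, a histone acetyltransferase, fell by 1.27 (limma adjusted p = 0.00275) and Med12, another Mediator subunit, by 0.33 (adjusted p = 0.0441). Of 23 other corepressors 2 rose, 2 fell and 19 did not pass (17.4% passed), with a median of 0.07. Hdac2, a histone deacetylase, rose by 0.59 and Mta2, a subunit of a deacetylase complex, by 0.38 (limma adjusted p = 0.0176 and 0.0403). Lcorl fell by 0.42 (limma adjusted p = 0.0408), and 2 of its 4 probes had the opposite sign. So had 1 of the 2 Hdac2 probes and 1 of the 5 Med14 probes. With slide as a block none of the coregulators named in this paragraph passed (limma adjusted p = 0.0639 to 0.528).

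Other close partners of the members were read by several probes. Crebbp, an acetyltransferase that the Ncoa proteins recruit, rose at 2 of 3 probes by 0.41 and 0.54 (limma adjusted p = 0.0363 and 0.0117) and was at 0.22 at the other one (adjusted p = 0.182). Its paralog Ep300 was at -0.14 and 0.16 at 2 probes (limma adjusted p = 0.349 and 0.307). One more Ep300 probe was well above background on 2 HE and 3 NC arrays, so it entered the test through NC alone. It stood 1.65 lower in HE (limma adjusted p = 0.0447), but that call is no support for a fall. Another Ep300 probe did not enter.

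Of 19 genes known to respond to estrogen in other tissues, 1 rose, 3 fell and 15 did not pass (21.1% passed), with a median of -0.03. Igf1, a growth factor, fell by 1.01 (limma adjusted p = 0.0156) and Foxa1, a pioneer factor, by 1.80 (adjusted p = 0.0174), while Igfbp4, an Igf binding protein, rose by 0.83 (adjusted p = 0.0355). With slide as a block Igf1, Foxa1 and Igfbp4 did not pass (limma adjusted p = 0.198, 0.237 and 0.144). Gata3, a transcription factor that also marks midbrain neurons, is counted among the 3 that fell. It was well above background on 5 NC arrays and none of the HE arrays, so it entered the test through NC alone. Its call (limma adjusted p = 0.00628, and 0.0806 with slide as a block) is no support for a fall. As a description, its signal was at least 16.2-fold lower in HE. That bound sets the mean of the NC arrays against a floor for each HE array, which is the lowest signal well above background there or, if higher, that of the probe itself. Of 9 midbrain and hypothalamus markers, a list that also holds Gata3, 4 fell and 0 rose in limma, and their summed signal was 1.75 to 11.3 on HE arrays and 4.48 to 50.9 on NC arrays, whose part in these falls was not tested.

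**Figure D5:**
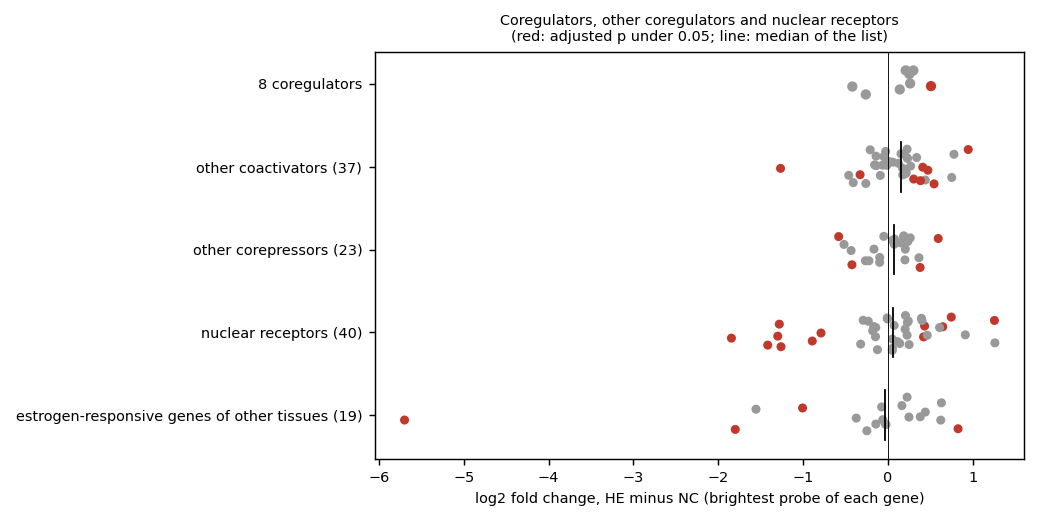
Points are the log2 fold changes (HE minus NC) of the probe with the highest signal of each gene, for the 8 coregulators and for the other lists (number of genes in brackets), red where the limma adjusted p was under 0.05, with a black line at the median of each of the other 4 lists. Of the 8 coregulators 1 is red, Nrip1 at 0.51, and the medians of the other 4 lists lie between -0.03 and 0.15.

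Over the 10 arrays, the genes whose pattern was most like that of the Nrip1 mRNA probe were Coq2 (r = 0.970), an enzyme of coenzyme Q synthesis, Ackr2 (r = 0.958), a scavenger receptor for chemokines, and Vti1a (r = 0.957), a vesicle fusion protein. The arrays of a group share slides, so this is a description of likeness. Their log2 fold changes were 0.45, 1.44 and 0.44. Since they were picked for likeness to a probe that was higher in HE, this rise is no separate result.

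The promoters of the members were searched for the estrogen response element. Windows of 300 bases around the start, 250 of them upstream, from RefSeq on GRCm38.p6, matched 6 of the 8 genes with 9 starts, all but Ncoa2 and Ncoa3. The full element GGTCANNNTGACC, the same on both strands, was in 0 of the 9 windows and in 23 of 32851 promoters (0.07%). Its half-site GGTCA, searched on both strands, was in the windows of Greb1 (1 and 2 times at its 2 starts) and at 1 of the 2 starts of Nrip1 (1 time), and in 40.5% of all promoters. A match is a run of letters and no evidence of binding.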

How the data were processed

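RNA from the hippocampus of 10 adult mice (5 HE, 5 NC) was read on Agilent 1-colour Cy3 arrays, per the labels' protocols, and images were quantified, per the submitters' processing notes, with Agilent Feature Extraction 10.7. The deposited scanner files hold processed intensity, background-subtracted and detrended within each array, per the file headers. A value table for the series, which the authors deposited with no stated method, holds log2 values. Its columns matched quantile-normalized log2 processed signals with slopes of 1.002 to 1.003 and medians of 7.03, so scale and direction are known and no centring was seen.

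Log2 signal relative to the 75th percentile of each array was computed over non-control probes, leaving out spots that the scanner software marked as uneven or as outliers of their population (68 to 129 per array). No spot was saturated. Probes were tested where they stood well above background on 3 or more of the 5 arrays of at least 1 group. HE was tested against NC with lmFit and eBayes of limma 3.58.1 under R 4.3.3 (two-sided, Benjamini-Hochberg over 30984 probes, threshold 0.05), and probe pairs by the same test over 10829 differences of the probe with the highest signal minus each other probe of a gene. Names came from the array files and the RefSeq table of GRCm38.p6 (27668 by accession, 5589 by symbol, 471 by synonym, 7446 as in the files).

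All probes of the 8 genes are named. Of the other lists, every passing gene is named where 6 or fewer passed, otherwise the 3 with the smallest adjusted p in each direction (ties included), with Esr1, Esr2, Gper1, Crebbp and Ep300 always. A few genes covered by the rule are not reported here. For a called member the 3 most correlated genes are named. The genes and lists were chosen with earlier results of these data known. Probes near Ncor1 were chosen after their values were seen.

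Replicate numbers did not pair the arrays (r of -0.07 to 0.15 between same-numbered HE and NC arrays). Each slide was 1 scan batch. None of the arrays was a duplicate of another (SD of the log2 difference within a group 0.435 to 0.704). The test was repeated with slide as a fixed or a random block, with a block for the replicate number, after normexp correction (offset 50), after quantile normalization, on the value table, with no dim filter, with 1 probe per gene, with an intensity trend and robust prior, with the Xist pattern, thalamic mean or myelin mean as a covariate, and with arrays left out. On simulated data with as many probes and arrays (30984 probes, 200 changed) the test recovered 17.9%, 44.8% and 93.9% at log2 changes of 0.5, 1 and 2, with 8 wrong of 112 calls. In the data 7176 probes passed, which makes the adjusted threshold more lenient there. These rates therefore do not carry over to the data. Exon and UTR positions and protein sequences were not used here.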

Additional observations from a re-analysis of the deposited data

Results flagged for a closer look

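In 5 of the 42 groups of 5 arrays (21 probes, HE and NC each), 1 array stood apart from the other 4 by more than 0.71 of the range of its group, the 95% critical value for 5 samples. Chance gives about 1 in 20 groups. In HE, the plus-strand Ncor1 probe A_51_P457744 was at -2.856 on HE 3 (next array -2.391), and the Ncor1 mRNA probe A_52_P561927 was at 1.275 on HE 4 (next array 1.649). In NC, the Nrip1 mRNA probe A_51_P152747 was at 1.257 on NC 1 (next array 0.8023), the plus-strand Ncor1 probe A_52_P357298 was at -0.7236 on NC 1 (next array -1.314), and the Ncoa3 probe A_52_P477759 was at -3.145 on NC 5 (next array -2.946). Without NC 1 the Nrip1 probe was at 0.61 and passed (limma adjusted p = 0.00801), and without HE 3 A_51_P457744 was at -0.47 and passed (limma adjusted p = 0.0218).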

How the results depend on the processing

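Counts over all probes, member probes and probe pairs were 7176, 6 and 2162, against 250, 0 and 11 with slide as a fixed block. With slide as a random block 8296 probes and 7 member probes passed, among them the 6 called without it. The correlation within slides estimated in that fit was -0.055, so it took out no shared slide effect. The replicate block gave 3 member probes (Ncor1 A_51_P457744, Nrip1 A_52_P609319 and A_52_P413584), with the Nrip1 mRNA probe at a limma adjusted p of 0.0518, and the 5 called member pairs passed with it. Normexp gave 14377 probes (2329 higher, 12048 lower) and 12 member probes (5 higher, 7 lower), and centred on the median probe, a setting chosen after seeing the data, 14545 (5863 higher, 8682 lower) and 10 (6 higher, 4 lower). Counts were 4092 and 1 with 1 probe per symbol, 1 and 0 with the thalamic covariate, 0 and 0 with the myelin covariate (limma), and 2905 and 3 without NC 1, NC 2 and NC 4. Leaving out single arrays gave 3900 to 7460 probes, 2 to 7 member probes (2 without NC 2 or NC 5, 3 without HE 1 or HE 3) and 668 to 2824 pairs. The cause of these changes was not tested. Signs turned as follows. Slide block: Ncoa3 A_52_P103066 at 0.0205 and A_52_P477759 at 0.18, Ncor1 A_52_P487598 at 0.10. Normexp: Ncoa2 at -0.0711, -0.70 and -1.004, Pelp1 A_51_P235440 at -0.59, Nrip1 A_52_P413584 at -0.12. Centred normexp: Ncoa2 at -0.33 and -0.64, Ncoa3 A_52_P103066 at 0.0679, Pelp1 A_51_P235440 at -0.22, Ncor1 A_52_P487598 at 0.34 and A_52_P244895 at 0.15. Quantile normalization and the value table: Ncoa3 A_51_P454207 at 0.0571 and 0.0577. Thalamic covariate: Ncoa2 A_52_P21971 at -0.17, Pelp1 at -0.0176 and -0.0485, Ncor1 at -0.0487, -0.19 and 0.41, Greb1 at 0.17. Myelin covariate: Ncoa2 A_52_P21971 at -0.0301, Ncoa3 A_51_P454207 at 0.0935, Pelp1 A_52_P546552 at -0.14, Ncor1 at -0.28 and 0.12. Without NC 1, NC 2 and NC 4: Ncor1 A_52_P487598 at 0.0440. The Nrip1 mRNA probe passed in 20 of 24 settings, Ncor1 A_51_P457744 in 19 of 23, and the other 4 called probes in 5 to 14 of 23.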
